A study of Mus musculus with 9 samples.

Results

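Liver RNA of mice that had received human extracellular vesicles (EVs) of either kind was compared with liver RNA of mice that had received only phosphate-buffered saline (PBS). The comparison took all 9 libraries of the series, 3 per group. Every group was NSG mice, an immunodeficient strain that lacks mature lymphocytes, recorded as wild type and injected through the tail vein for 5 weeks. The first group received PBS, the second EVs of MCF-10A, a human breast epithelial line that does not form tumours, and the third EVs of MDA-MB-231, a line from a human breast tumour of the triple-negative class. Sex and age were not given in the sources used here, and neither were dose and number of injections. Of 61473 listed features, 12618 Ensembl genes entered the comparison: they were above 0 in at least 1 library of each group and had a mean of 1 or more after each library was rescaled to the same total over the genes above 0 in every group. Values below are these rescaled TPM, a measure of transcript abundance corrected for transcript length. The labels do not say that each sample came from a separate mouse, so p-values speak only for the spread among these libraries, which may be technical.

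EVs are membrane-bound particles that cells shed and that carry protein, lipid and RNA to other cells. After injection into the blood they collect largely in the liver, where Kupffer cells, the resident macrophages, and sinusoidal endothelial cells take up particles and pass them to lysosomes for breakdown. Pooling both vesicle kinds asks which liver genes differ from PBS after human vesicles whatever their cell of origin.

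The defining liver genes were abundant throughout: 24 hepatocyte markers summed to between 102710 and 273610 TPM per library. Of 16 lymphocyte markers 3 passed the filter. Libraries within a group differed. Mitochondrially encoded genes held 27.2%, 12.6% and 8.42% of the TPM in PBS 1 to 3, between 5.64% and 9.46% after MCF-10A EVs, and 6.54%, 5.01% and 12.6% after MDA-MB-231 EVs. High Xist set PBS 1 and MDA-MB-231 EV 3 apart (332 and 293 TPM, against at most 80.9 elsewhere), as did high Mug2. MDA-MB-231 EV 2 had the lowest Malat1, 5.75 TPM, and MCF-10A EV 1 held 29223 TPM of the acute phase gene Saa1. Read depth is unknown, since TPM do not keep it.

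No gene passed the threshold in the pooled comparison. At an adjusted p under 0.05 (limma, mean of both EV groups against PBS, Benjamini-Hochberg over all genes), 0 of 12618 genes were called, 0% of those tested, and the smallest adjusted p was 0.0501. At an unadjusted p under 0.05 there were 179 genes, 83 higher and 96 lower after EVs, and in 167 of them both vesicle groups lay on the same side of PBS. Both vesicle groups were higher than PBS for 6140 genes (48.7%), both lower for 2397 (19%) and on opposite sides for 4081. These counts stand beside a shift of all genes: the median log2 change was 0.15, and 66.6% of genes were above 0. When the mitochondrially encoded genes were left out before rescaling, the median was 0.03. This setting, like the mitochondrial shares above, took genes by their mt- symbol and did not cover copies of them in other rows. Such a row was Gm28437, whose transcript matched mt-Co3 over its whole length at 100% identity. It was at 18859 to 49598 TPM after PBS, highest in PBS 1, and at 10379 to 20086 TPM after EVs. The 2 single comparisons share the PBS libraries, so their likeness is no independent evidence.

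A shared direction was read from the libraries themselves, by whether all EV libraries lay on 1 side of all PBS libraries. Arbitrary group labels would also part some genes in this way, and their number was not worked out. Genes found so are therefore not shown to be changed by EVs. In 48 genes all 6 EV libraries lay above all 3 PBS libraries (0.38% of those tested), and in 12 all 6 lay below (0.0951%). This split depends on the scaling. It was 22 higher and 24 lower without mitochondrially encoded genes, 30 and 51 after median centring, 57 and 34 after quantile normalization, and 45 and 14 with TPM as deposited. The split also moved with MDA-MB-231 EV 3: without it 119 genes were higher and 156 lower in every remaining EV library. Under all 5 scalings 9 genes stayed apart on the same side: Ppp3r1, Tbc1d1, Taf9 and Ccdc7a above PBS, and Apba2, Usp9y, Chmp4c, Mfsd14b and Gm13340 below it. The plot of the mitochondrial share and the scalings shows that PBS 1 holds the largest share. Without PBS 1, 186 genes were higher and 63 lower, and without PBS 1 and MDA-MB-231 EV 3, 269 and 195, as fewer libraries part more easily.

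**Figure D1:**
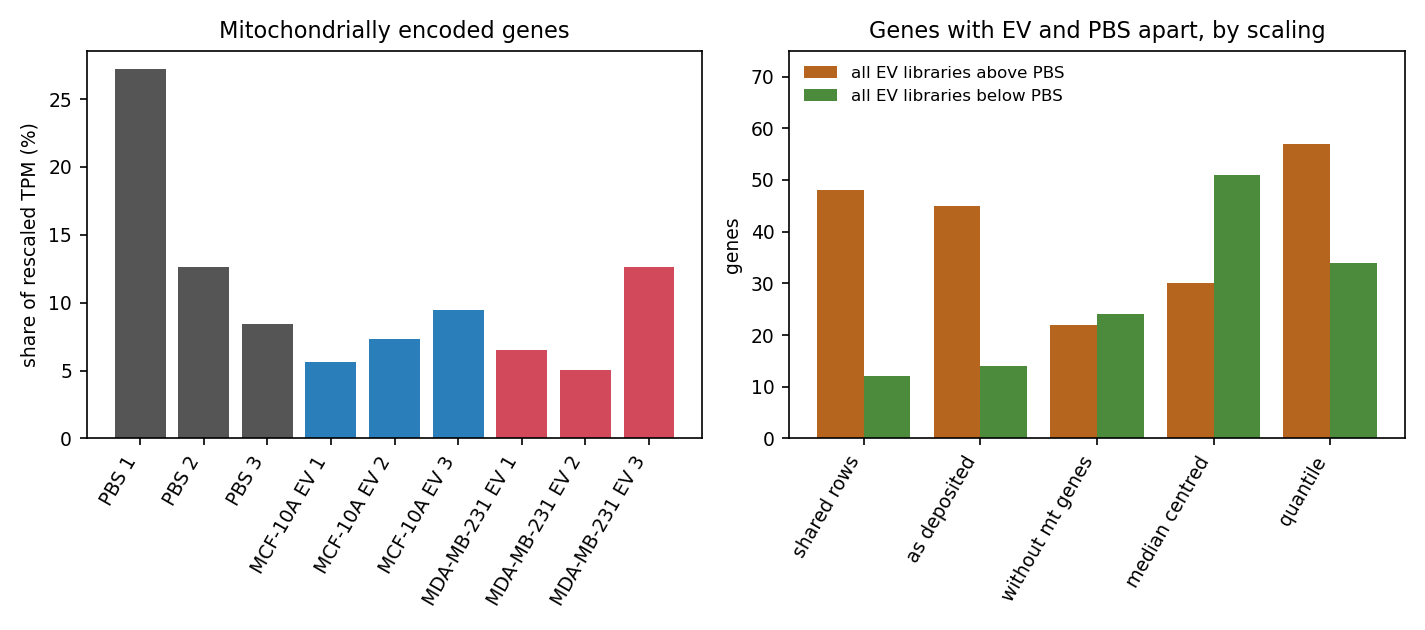
Left, share of rescaled TPM in mitochondrially encoded genes (%) per library, 1 bar each; right, number of genes whose 6 EV libraries all lie above or all below the 3 PBS libraries under each of 5 scalings. PBS 1 reaches 27.2%, and the 48 to 12 split of the shared-row scaling becomes 22 to 24 without mitochondrially encoded genes.

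Of the genes below PBS in every EV library, 8 met the naming rule (a gene that is not a predicted one, with a mean of at least 5 TPM on its higher side). Apba2, an adaptor protein that binds the amyloid precursor protein, stood at 18.9, 4.23 and 7.72 TPM after PBS. It was at 0.0613, 0.0106 and 0.0432 TPM after MCF-10A EVs and at 0.753, 0.792 and 0.644 TPM after MDA-MB-231 EVs. The highest EV library thus lay far below the lowest PBS library, and the MCF-10A EV libraries were near 0. The log2 change of Apba2 was -2.85 ± 0.42 (SE), with an adjusted p of 0.225. Its relative Apba3 overlapped between the groups, with 34.8 to 90.9 TPM after PBS and 20 to 130.3 TPM after EVs.

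Usp9y, a Y-linked deubiquitinase, was at 7.7, 6.24 and 6.19 TPM after PBS. After MCF-10A EVs it was at 2.51, 0 and 0 TPM and after MDA-MB-231 EVs at 0, 0 and 1.11 TPM, listed at 0 in 4 of 6 libraries (log2 change -2.46 ± 0.48, adjusted p = 0.914). Its X-linked relative Usp9x overlapped, at 9.55 to 23.6 TPM after PBS and 4.9 to 15.2 TPM after EVs. The other Y-linked genes Ddx3y, Eif2s3y, Kdm5d and Uty reached at most 0.13 deposited TPM in any library, so the Usp9y reading is uncertain as a measure of that gene.

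Gucy2c, the guanylate cyclase receptor of guanylin and uroguanylin, was at 18.7, 36.4 and 40.8 TPM after PBS. It was at 7.14, 17.7 and 11.8 TPM after MCF-10A EVs and at 6.29, 11.9 and 7.93 TPM after MDA-MB-231 EVs. The groups came within 1 TPM of each other at PBS 1 and MCF-10A EV 2, and the log2 change was -1.53 ± 0.40 (adjusted p = 0.999). The hormones Guca2a and Guca2b were at most 0.352 TPM in every library.

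Chmp4c, a subunit of the ESCRT-III complex that cuts membranes in cell division and vesicle budding, had 12.5, 2.68 and 1.95 TPM after PBS. All EV libraries lay between 0.324 and 1.41 TPM (log2 change -1.49 ± 0.47). Its paralogue Chmp4b overlapped, with 17.8 to 45 TPM after PBS and 26 to 67.3 TPM after EVs. Magt1, a magnesium transporter and oxidation-linked subunit of the oligosaccharyl transferase, was at 38.2, 20.7 and 39.6 TPM after PBS and at 9.01 to 20.2 TPM over the EV libraries (log2 change -1.15 ± 0.36). Here MDA-MB-231 EV 2 nearly touched PBS 2. Lactb2, a mitochondrial endoribonuclease, was at 75.5, 80.8 and 85.3 TPM after PBS, and at 29.5, 50.8 and 35.6 TPM after MCF-10A EVs. After MDA-MB-231 EVs it was at 62.4, 58.2 and 58.9 TPM, between the other groups (pooled log2 change -0.75 ± 0.30). Mfsd14b, a transporter of the major facilitator family, was at 15.2 to 27.8 TPM after PBS and 5.95 to 13.6 TPM after EVs (-0.98 ± 0.36). Its relative Mfsd14a overlapped. Plac9a, a small secreted protein with a near-identical neighbour Plac9b, was at 4.45 to 6.63 TPM after PBS and 0 to 3.87 TPM after EVs (-1.40 ± 0.39), and reads shared with that copy leave its value uncertain. The adjusted p of these genes from Chmp4c to Plac9a was 0.999 in the limma fit.

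A predicted gene below PBS in every EV library, chosen after its values were seen, was Gm13340. It was at 2822, 1597 and 1468 TPM after PBS, 115, 506 and 586 TPM after MCF-10A EVs and 399.8, 1171 and 1057 TPM after MDA-MB-231 EVs (log2 change -1.89 ± 0.59). It is an unprocessed pseudogene in GENCODE M21, and its 1545-base transcript matched the mitochondrial cytochrome oxidase gene mt-Co1 over its whole length at 97.6% identity. Reads of mt-Co1 could therefore be counted in it, and its value is uncertain.

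**Figure D2:**
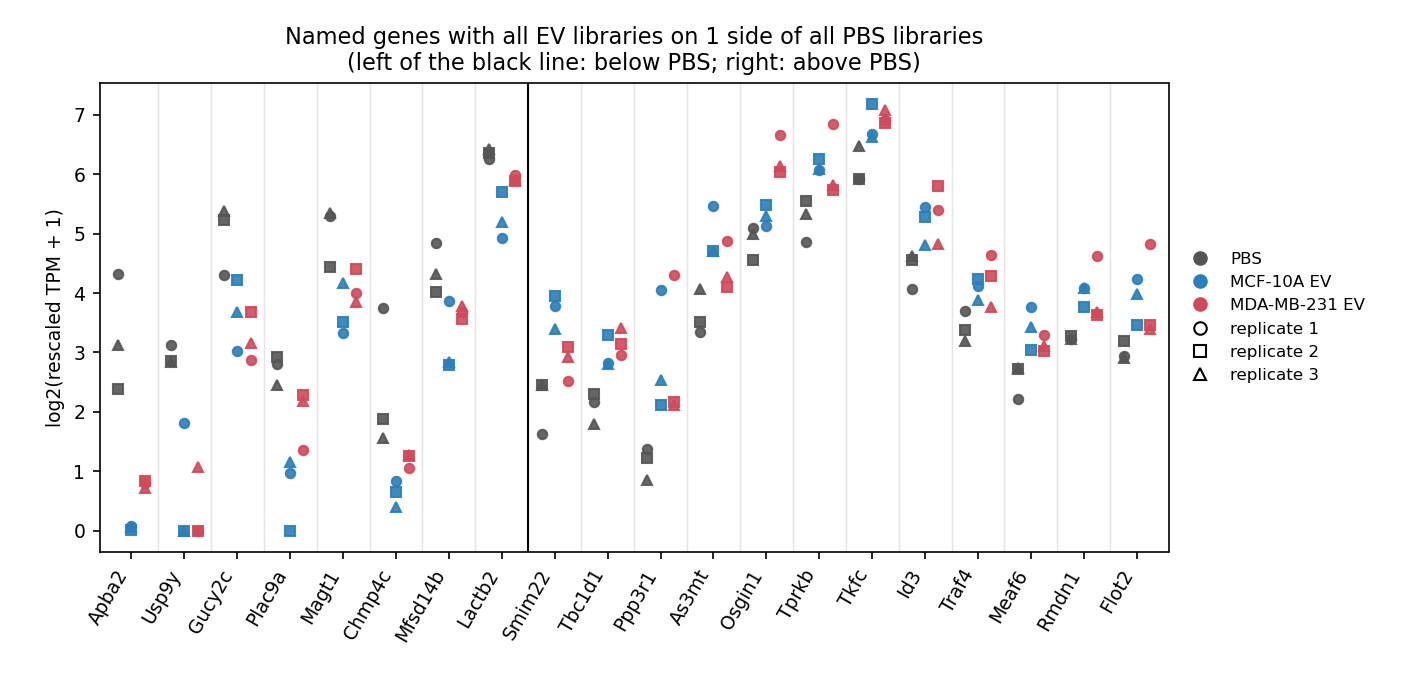
Level of each named gene as log2(rescaled TPM + 1) in each of the 9 libraries, coloured by group, with a marker per replicate number. Apba2 shows the widest gap, 0.0106 to 0.792 TPM after EVs against 4.23 to 18.9 TPM after PBS, while several genes on the right come close to PBS in single EV libraries.

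Of the genes above PBS in every EV library, the 12 named span several functions. Ppp3r1, the regulatory subunit of the phosphatase calcineurin, was at 1.6, 1.33 and 0.812 TPM after PBS. It was at 15.5, 3.34 and 4.8 TPM after MCF-10A EVs and at 18.8, 3.47 and 3.32 TPM after MDA-MB-231 EVs, so replicate 1 of each vesicle group stood far above the rest. The log2 change was 1.73 ± 0.58. The catalytic subunits Ppp3ca and Ppp3cb overlapped between the groups. Tbc1d1, a GTPase-activating protein for Rab proteins of glucose transporter traffic, was at 3.49, 3.92 and 2.46 TPM after PBS. After MCF-10A EVs Tbc1d1 was at 6.03, 8.82 and 5.98 TPM and after MDA-MB-231 EVs at 6.79, 7.86 and 9.69 TPM, an even gap with no library standing out (0.99 ± 0.31). Both stayed apart under all 5 scalings.

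Smim22, a small membrane protein, was at 2.09, 4.47 and 4.45 TPM after PBS, at 12.8, 14.4 and 9.57 TPM after MCF-10A EVs and at 4.7, 7.52 and 6.56 TPM after MDA-MB-231 EVs (log2 change 1.10 ± 0.34). As3mt, which methylates arsenite, was at 9.13, 10.4 and 15.7 TPM after PBS, at 43, 25.1 and 25.2 TPM after MCF-10A EVs and at 28.3, 16.1 and 18.2 TPM after MDA-MB-231 EVs (1.05 ± 0.35). In both, the lowest EV library was of the MDA-MB-231 group and only just above PBS. Osgin1, a growth inhibitor induced by oxidative stress, ran the other way. It was at 33.1, 22.5 and 30.8 TPM after PBS, at 34.2, 43.8 and 38.4 TPM after MCF-10A EVs, and at 99.9, 64.7 and 69.2 TPM after MDA-MB-231 EVs (pooled 0.91 ± 0.31). The difference between the vesicle kinds was 0.97 ± 0.36 for Osgin1 and missed the threshold (limma adjusted p = 0.999).

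Tkfc, the kinase that feeds fructose-derived glyceraldehyde into glycolysis, was at 59.8, 59.3 and 87.7 TPM after PBS, 101, 144 and 97.2 TPM after MCF-10A EVs and 120.1, 115 and 134 TPM after MDA-MB-231 EVs (log2 change 0.78 ± 0.31). Id3, an inhibitor of helix-loop-helix transcription factors needed for Kupffer cell identity, was at 15.8, 22.6 and 23.8 TPM after PBS, 42.4, 37.8 and 27.1 TPM after MCF-10A EVs and 41.3, 54.8 and 27.4 TPM after MDA-MB-231 EVs (0.84 ± 0.34). The gap for Id3 was narrowest at replicate 3 of each vesicle group. Flot2, a flotillin that scaffolds membrane microdomains and endocytic vesicles, was at 6.67, 8.19 and 6.54 TPM after PBS, 17.8, 9.97 and 14.8 TPM after MCF-10A EVs and 27.3, 10 and 9.54 TPM after MDA-MB-231 EVs (0.88 ± 0.39). Its partner Flot1 overlapped, with 12.9 to 29.6 TPM after PBS and 12.1 to 50.4 TPM after EVs. The others were Tprkb, a subunit of the KEOPS complex for tRNA modification (0.89 ± 0.36), Traf4, an adaptor of the TNF receptor family (0.74 ± 0.32), Meaf6, a subunit of histone acetyltransferase complexes (0.72 ± 0.32), and Rmdn1, which binds microtubules (0.74 ± 0.33). For Rmdn1 the PBS libraries were tight, at 8.35 to 8.65 TPM, and the EV libraries ran from 11.3 to 23.8 TPM. In the limma fit all 12 had an adjusted p of 0.999. Only 2 of the 12, Ppp3r1 and Tbc1d1, stayed apart under all 5 scalings. Their log2 changes kept their sign without MDA-MB-231 EV 3 or without PBS 1. Since each was chosen with every EV library above PBS, that outcome was nearly fixed and tests nothing.

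Among the other 36 genes above PBS in every EV library, some were chosen here after their values were seen. Taf9, a subunit of the general transcription factor TFIID, was at 0, 0.239 and 0.271 TPM after PBS and between 0.734 and 2.92 TPM in the EV libraries. Rps6, a protein of the small ribosomal subunit, was at 230.4, 384 and 363 TPM after PBS and at 429 to 577 TPM after EVs (log2 change 0.62 ± 0.33). The gap of Rps6 was small beside the spread of the EV libraries. Coagulation factor F10 was at 289 to 337 TPM after PBS and 342 to 473 TPM after EVs, and the proteasome activator Psme3 at 13.2 to 17.1 TPM against 18.4 to 21.3 TPM. F10 was apart under the shared-row scaling alone.

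In some genes with a small p in the pooled comparison the 2 vesicle kinds were unlike. Tuba5-ps, a tubulin pseudogene with the smallest adjusted p, was at 57.4, 83.1 and 64.4 TPM after PBS and at 30.5, 64.9 and 81.2 TPM after MDA-MB-231 EVs, which overlapped. After MCF-10A EVs it was at 0, 0.0851 and 0.173 TPM. The pooled log2 change of -3.14 ± 0.37 was thus the mean of -5.98 and -0.30, and the difference between the vesicle kinds passed the threshold at 5.68 ± 0.42 (limma adjusted p = 0.000616). Gli1, the transcription factor at the end of the Hedgehog pathway, was at 14.1, 19.8 and 13 TPM after MCF-10A EVs and at most 0.197 TPM in the other 6 libraries (difference -3.93 ± 0.36, adjusted p = 0.00255). For both genes, which were chosen after their values were seen, the MDA-MB-231 EV libraries overlapped with PBS.

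Compared with each other, the vesicle kinds gave 5 called genes, 0.0396% of those tested: Tuba5-ps, Gli1 and the predicted genes Gm14026, Gm47076 and Gm5827. With the replicate number as a block over all 3 groups, 3 of them were called: Tuba5-ps, Gli1 and Gm47076. The count was 10 without MDA-MB-231 EV 3, 3 without PBS 1 or PBS 3, and 2 without PBS 2, MCF-10A EV 2 or MCF-10A EV 3. Gm14026 and Gm47076 were near 0 after MCF-10A EVs alone, and Gm5827 was at 6.12 to 9.3 TPM there and at most 0.633 TPM elsewhere. Tmem254a, Tm4sf5 and Chn1 had the same form without passing this test. Chn1, a GTPase-activating protein for Rac, was at 54.7 to 179 TPM after PBS, 12.1, 33.9 and 377 TPM after MDA-MB-231 EVs, and at most 0.238 TPM after MCF-10A EVs. The MCF-10A EV libraries also differed in how their table columns look: all 6059 assembled loci were at 0 there, and nowhere else. Its part in the values near 0 was not tested.

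**Figure D3:**
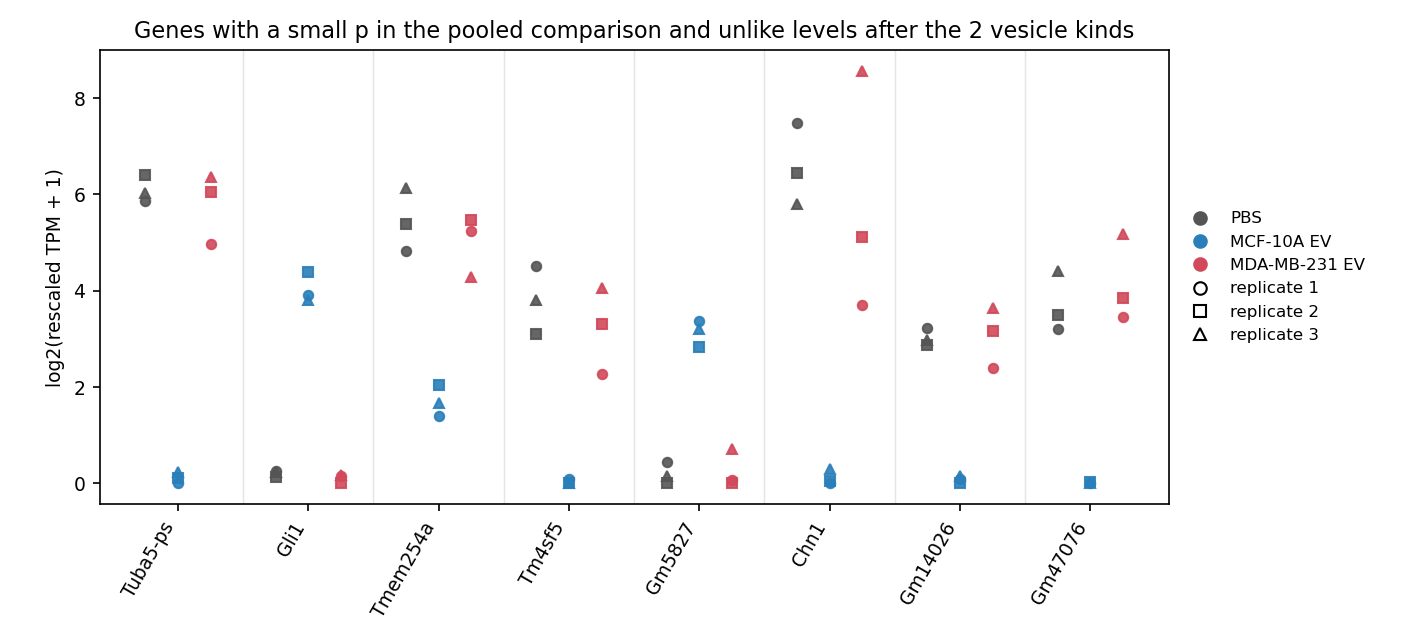
Level as log2(rescaled TPM + 1) in each library of 8 genes with small p in the pooled comparison, coloured by group. The MCF-10A EV libraries are the lowest, or for Gli1 and Gm5827 the highest, while the MDA-MB-231 EV libraries overlap with PBS.

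Gene lists were read by how many tested members lay above 0 and by their median log2 change, beside 66.6% and 0.15 over all genes. Without PBS 1 all genes had 73.5% above 0 and a median of 0.21. Without MCF-10A EV 1 these were 61.6% and 0.09, and with libraries weighted by quality 67.8% and 0.16. No member of any of the 41 lists was called (0% of all genes were called). The list with the lowest median was that of mitochondrially encoded subunits of the respiratory chain. All 12 tested members of 13 were below 0 after both vesicle kinds, with a median of -1.09, and none had groups that did not overlap. mt-Cytb, the cytochrome b of complex III, was at 22432, 11598 and 7131 TPM after PBS. It was at 5054, 4189.7 and 4835 TPM after MCF-10A EVs and at 4992, 3817 and 8204 TPM after MDA-MB-231 EVs, so that MDA-MB-231 EV 3 alone reached above PBS 3 (log2 change -1.29 ± 0.46). mt-Nd6, the complex I subunit on the other DNA strand, was at 4644, 2431 and 2208 TPM after PBS, 1645, 1747 and 1812 TPM after MCF-10A EVs and 1035, 619.9 and 2257 TPM after MDA-MB-231 EVs (-1.06 ± 0.47). The same library again lay within the PBS range. mt-Nd3 and mt-Atp6 were spread widest, and mt-Nd3 ran from 342 to 26408 TPM over the EV libraries.

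The median of the mitochondrial list was -0.66 without PBS 1, -1.32 without MDA-MB-231 EV 3 and -0.92 without both, and all 12 members stayed below 0 in each of these. PBS 1 carried the highest level of 11 of the 12, the exception being mt-Atp6, highest in MDA-MB-231 EV 3. RNAs that stay in the nucleus, a sign of RNA quality and handling, had a median of -0.56 over 6 tested members, and of -0.02 without PBS 1; their part in the mitochondrial levels was not tested. The subunits that the nucleus encodes did not follow. Of 29, 25 were above 0 with a median of 0.22, and 17 were higher after both kinds, yet without PBS 1 the median was -0.16 with 7 above 0. Sdha, the flavoprotein of complex II, was at 13.1, 41 and 30.5 TPM after PBS and at 20.1 to 186 TPM after EVs. The 28 ribosomal protein genes had a median of 0.48 with 26 above 0. Without PBS 1 it was 0.08 with 19 above 0, where all genes had 0.21.

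**Figure D4:**
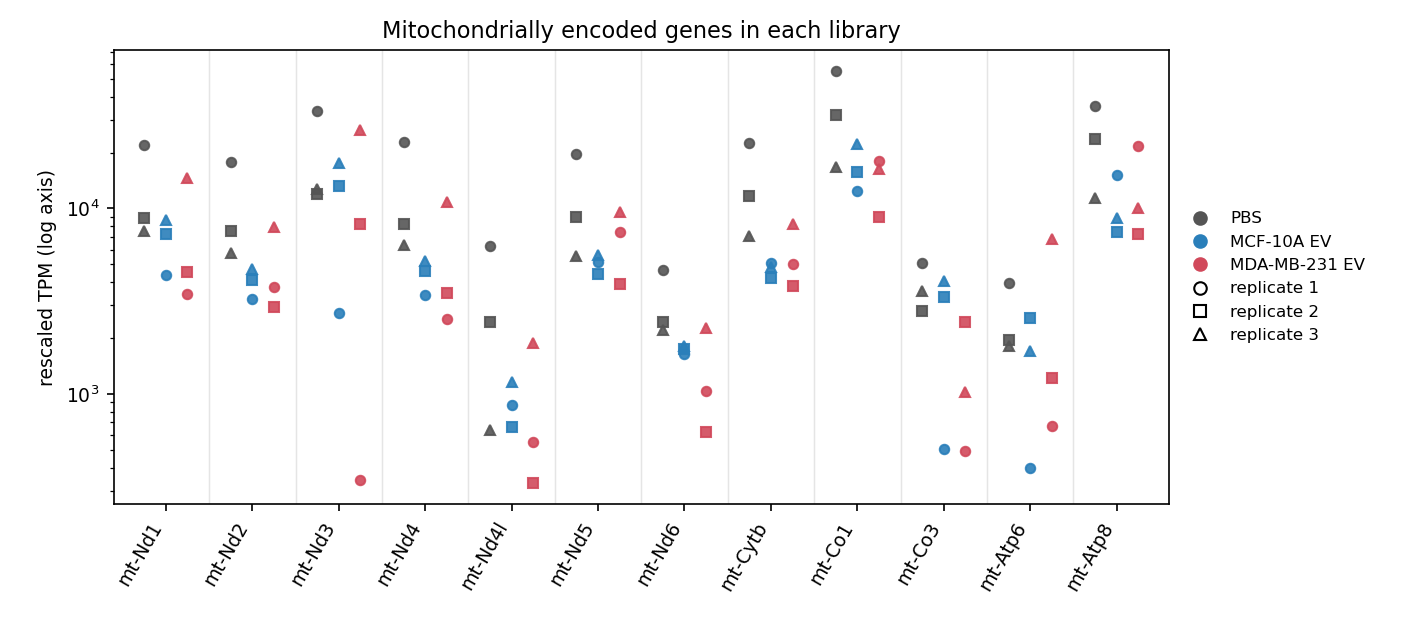
Rescaled TPM (log axis) of the 12 tested mitochondrially encoded genes in each library, coloured by group. PBS 1 is the highest point for all but mt-Atp6, and MDA-MB-231 EV 3 lies within or above the PBS range for most.

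Lysosomal genes, NRF2 targets and genes of SREBP control were lists in which every tested member lay above 0. Of the lysosomal genes all 30 had a positive pooled change, 26 of them after both vesicle kinds, with a median of 0.44. The libraries were uneven. Relative to the PBS mean of each gene the list median was 1.14, 0.02 and -0.04 in MCF-10A EV 1 to 3, 1.27, 0.63 and -0.16 in MDA-MB-231 EV 1 to 3, and -0.41, 0.27 and 0.14 in PBS 1 to 3. Replicate 1 of each vesicle kind and MDA-MB-231 EV 2 were therefore high, and the other 3 EV libraries lay within the PBS range. The 3 high libraries were replicate 1 of MCF-10A EV and replicates 1 and 2 of MDA-MB-231 EV. In them the hepatocyte marker list had medians of 0.40, 1.03 and 0.89, against -0.87 to 0.56 after PBS. The Kupffer marker list had medians of 1.69, 0.835 and 0.79 there, against -0.50 to 0.61 after PBS. In the other EV libraries the Kupffer median ran from -0.22 to 0.25. The part of either list in the lysosomal values was not tested. Over all libraries 18 of 24 hepatocyte markers were above 0 with a median of 0.31, and 9 of 24 without PBS 1, with a median of -0.19. The lysosomal list median was 0.22 without PBS 1, with 29 of 30 above 0, where all genes had 0.21 and 73.5% above 0. It was 0.25 without MCF-10A EV 1, with 27 above 0, where all genes had 0.09 and 61.6% above 0.

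Among lysosomal members, the protease cathepsin B, Ctsb, was at 56.2, 109 and 122 TPM after PBS, 561, 284 and 246 TPM after MCF-10A EVs and 311, 173 and 53.4 TPM after MDA-MB-231 EVs (log2 change 1.27 ± 0.55). For Ctsb, MDA-MB-231 EV 3 lay below PBS and the other 5 EV libraries above it. Gusb, which removes glucuronic acid from glycosaminoglycans, was at 4.65 to 8.37 TPM after PBS and 5.62 to 26 TPM after EVs (0.78 ± 0.47). Ctsd, another cathepsin, was at 73.6, 165 and 143 TPM after PBS, 313, 123 and 81.9 TPM after MCF-10A EVs and 288, 258 and 88.9 TPM after MDA-MB-231 EVs (0.46 ± 0.54). Ctsa, a protective carboxypeptidase, and Gla, an alpha-galactosidase, had changes of 0.37 ± 0.37 and 0.38 ± 0.40, with overlap.

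The transcription factors TFEB and TFE3 are known to drive lysosomal genes through sites built on CACGTG. Promoters of 300 bases (250 before and 50 after the start, RefSeq, GRCm38.p6, while the values are on GRCm39) were found for 22 of the 30 lysosomal genes by symbol. CACGTG, which reads the same on both strands, was in 9 of their 27 promoters (33.3%) and in 7.15% of all 32851 promoters of that length. Counted by gene, that was 40.9% of the 22 and 8.09% of all genes with a promoter. The longer TCACGTGA, which contains it, was in 6 of the 27 (22.2%) and in 0.974% of all promoters. The promoters of Ctsd, Ctsa and Gla were chosen after values were seen and are shown because they hold TCACGTGA, in capitals, once in Ctsd and 2 times in the others.
Ctsd (chr7:142387778-142388077, minus strand): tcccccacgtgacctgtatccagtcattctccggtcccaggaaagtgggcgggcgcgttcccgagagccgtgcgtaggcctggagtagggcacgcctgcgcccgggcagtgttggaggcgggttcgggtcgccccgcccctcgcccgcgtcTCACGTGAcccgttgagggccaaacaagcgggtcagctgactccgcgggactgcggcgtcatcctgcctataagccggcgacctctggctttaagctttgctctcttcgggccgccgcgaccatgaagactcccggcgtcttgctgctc
Ctsa (chr2:164833523-164833822, plus strand): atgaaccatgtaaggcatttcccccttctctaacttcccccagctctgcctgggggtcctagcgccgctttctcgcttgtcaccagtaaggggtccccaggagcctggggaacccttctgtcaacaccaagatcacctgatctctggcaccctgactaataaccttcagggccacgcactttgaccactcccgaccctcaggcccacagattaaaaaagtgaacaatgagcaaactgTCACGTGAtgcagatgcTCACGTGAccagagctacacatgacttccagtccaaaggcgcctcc
Gla (chrX:134600956-134601255, minus strand): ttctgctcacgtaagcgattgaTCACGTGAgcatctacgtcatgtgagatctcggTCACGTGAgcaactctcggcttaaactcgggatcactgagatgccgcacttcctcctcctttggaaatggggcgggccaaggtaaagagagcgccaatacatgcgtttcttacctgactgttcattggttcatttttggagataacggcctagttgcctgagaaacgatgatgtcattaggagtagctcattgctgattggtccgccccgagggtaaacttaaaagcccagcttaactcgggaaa
A match describes the letters and is no measured site. The counts use no expression value, so they say nothing of TFEB or TFE3 activity after EVs.

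Targets of NRF2, the transcription factor of the oxidative stress response, had all 17 tested members of 19 above 0, and 16 higher after both kinds, with a median of 0.46. By library the list median was 0.71, 0.24 and 0.14 after MCF-10A EVs and 0.79, 0.41 and 0.24 after MDA-MB-231 EVs, against -0.35, 0.08 and 0.20 after PBS. PBS 3 lay above MCF-10A EV 3, so the groups overlapped. Txnrd1, the cytosolic thioredoxin reductase, was at 9.8, 10.7 and 10.8 TPM after PBS, 28.2, 10.7 and 13.3 TPM after MCF-10A EVs and 47.3, 16.7 and 12.5 TPM after MDA-MB-231 EVs (log2 change 0.78 ± 0.46). G6pdx, which makes NADPH, was at 1.86 to 3.72 TPM after PBS and 2.6 to 14.2 TPM after EVs (0.74 ± 0.42). Srxn1, sulfiredoxin, was at 5.66 to 8.97 TPM after PBS and 5.49 to 11.5 TPM after EVs (0.18 ± 0.36). Osgin1, described above, was the member with groups that did not overlap, which held under 2 of the 5 scalings. The median was 0.31 without PBS 1, and 13 of 17 were above 0 when libraries were weighted by their quality.

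NRF2 binds elements with the core TGACNNNGC. Read on both strands, this core was in 7 of 18 promoters (38.9%) of the 14 NRF2 targets found in the same table, and in 12.4% of all promoters. Counted by gene, that was 50% of the 14 and 14% of all genes with a promoter. Txnrd1 and Srxn1 are shown, with the core or its reverse complement in capitals.
Txnrd1 (chr10:82858956-82859255, plus strand): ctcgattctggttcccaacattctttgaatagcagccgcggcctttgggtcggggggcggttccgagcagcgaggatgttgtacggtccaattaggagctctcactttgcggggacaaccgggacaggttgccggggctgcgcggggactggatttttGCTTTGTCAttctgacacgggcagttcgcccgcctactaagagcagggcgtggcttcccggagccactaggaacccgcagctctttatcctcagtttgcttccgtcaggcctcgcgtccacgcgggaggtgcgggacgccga
Srxn1 (chr2:152105274-152105573, plus strand): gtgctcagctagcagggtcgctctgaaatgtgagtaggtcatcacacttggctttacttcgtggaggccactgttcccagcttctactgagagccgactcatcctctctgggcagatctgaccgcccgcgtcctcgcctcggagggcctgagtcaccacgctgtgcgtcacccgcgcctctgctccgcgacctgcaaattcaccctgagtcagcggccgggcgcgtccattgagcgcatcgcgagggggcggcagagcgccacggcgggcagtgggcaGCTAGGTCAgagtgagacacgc
The window of Osgin1 held no match to these letters. These counts use no expression value either, and the list was made of NRF2 targets, so they do not bear on NRF2 activity after EVs.

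**Figure D5:**
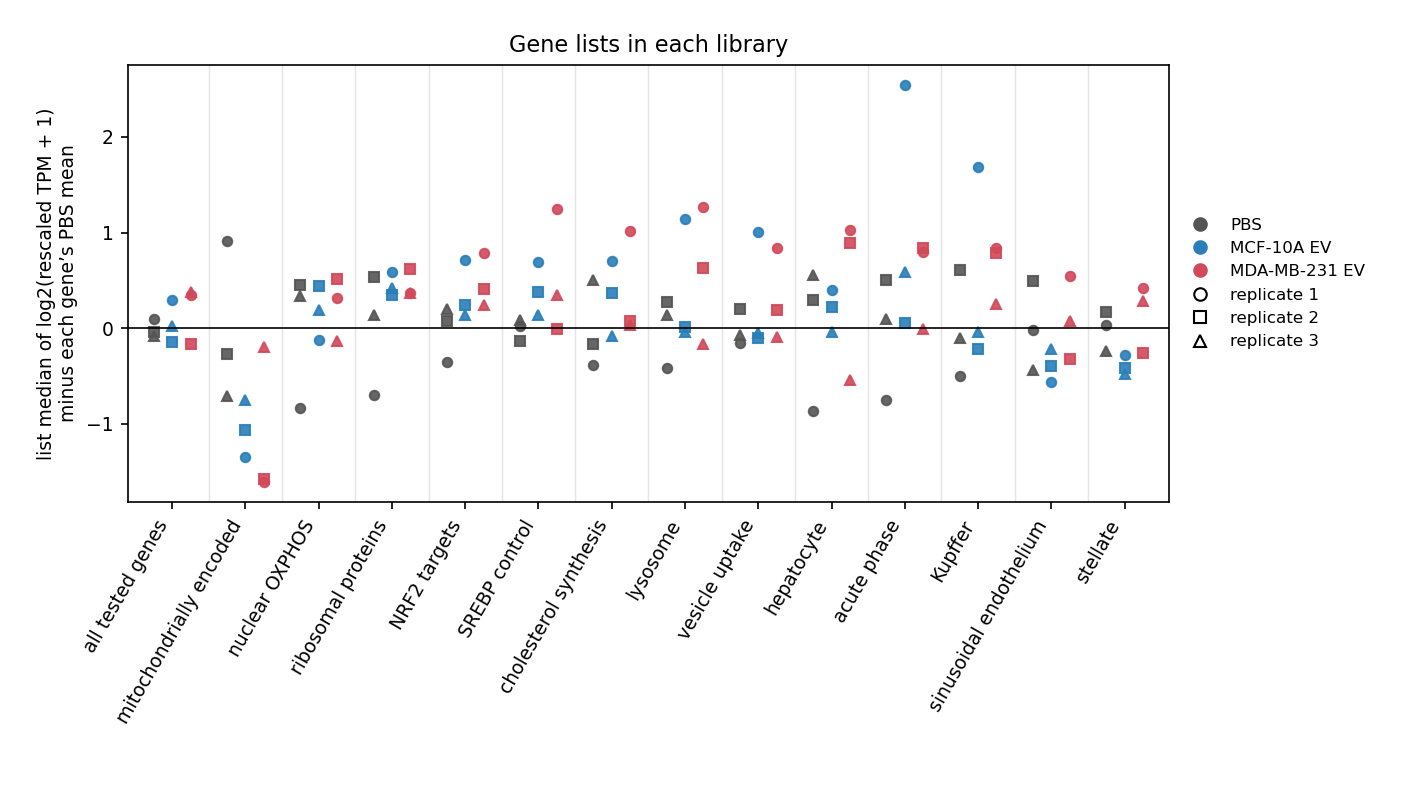
For each gene list, the median over its tested genes of log2(rescaled TPM + 1) minus the PBS mean of each gene, 1 point per library, coloured by group. The mitochondrially encoded list is the lowest shown in every EV library but MDA-MB-231 EV 3, where it is at -0.20, within the PBS range. In the lysosome, acute phase and Kupffer lists single EV libraries stand high (2.55 for acute phase genes in MCF-10A EV 1) while others overlap with PBS.

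Sterol control genes leaned the same way after both kinds. All 13 genes of SREBP processing had a pooled change above 0, 10 of them after both kinds, with a median of 0.53, and the count was 9 of 13, with a median of 0.24, without MDA-MB-231 EV 1. The median was 0.31 without PBS 1 and 0.33 without MCF-10A EV 1. Mbtps1, the site-1 protease that cuts SREBP in the Golgi, was at 13, 8.52 and 9.15 TPM after PBS, 43.9, 38.6 and 42.4 TPM after MCF-10A EVs and 26.6, 8.41 and 16.5 TPM after MDA-MB-231 EVs (log2 change 1.26 ± 0.38, limma adjusted p = 0.999). MDA-MB-231 EV 2 lay just below the PBS range, so Mbtps1 was not apart in every library. The cholesterol synthesis and uptake list had 21 of 23 members above 0 and a median of 0.37, which was 0.17 without PBS 1; with libraries weighted by quality the median was -0.11 with 9 above 0. Fdft1, squalene synthase, was at 12.9, 32.6 and 42.3 TPM after PBS and at 37.1 to 115 TPM after EVs (1.13 ± 0.50), and MCF-10A EV 3 and MDA-MB-231 EV 3 lay inside the PBS range. Scd1, the desaturase of the fatty acid synthesis list, was at 272, 425 and 327 TPM after PBS, 647, 905 and 685 TPM after MCF-10A EVs and 699, 589 and 310.1 TPM after MDA-MB-231 EVs (0.86 ± 0.38). Without MDA-MB-231 EV 3 its libraries would not overlap. Pygl, liver glycogen phosphorylase, had 1.05 ± 0.42, and 52.5 TPM in MDA-MB-231 EV 3, below PBS 2 and 3. The lists of bile acids, fatty acid oxidation and xenobiotic metabolism had pooled medians of 0.11, 0.20 and 0.23, close to all genes, but the vesicle kinds differed. Their medians were 0.32, 0.54 and 0.52 after MDA-MB-231 EVs, where all genes had 0.21. After MCF-10A EVs they were -0.13, 0.006 and -0.09, where all genes had 0.09.

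The neutrophil, acute phase, monocyte and Kupffer lists had the highest medians of the 41, and each was lower without MCF-10A EV 1. In bulk tissue a change in a cell type's markers may be more cells or more RNA per cell, which cannot be told apart here. The acute phase list had 26 of 28 above 0 and a median of 0.85. It was 2.55 in MCF-10A EV 1 and between -0.01 and 0.84 in the other EV libraries, against -0.76 to 0.50 after PBS, and without MCF-10A EV 1 the pooled median was 0.47, and without PBS 1 it was 0.50. Serpina3m, a protease inhibitor of the acute phase, lay above every PBS library in 5 of 6 EV libraries. It was at 40, 162 and 89.9 TPM after PBS, 551, 385 and 432 TPM after MCF-10A EVs and 536, 339.5 and 109 TPM after MDA-MB-231 EVs (log2 change 2.05 ± 0.56, limma adjusted p = 0.999). MDA-MB-231 EV 3 alone overlapped with PBS. Neutrophil markers had 14 of 15 above 0 and a median of 1.22, which was 0.57 over the 10 still tested without MCF-10A EV 1. By vesicle kind the neutrophil median over all libraries was 2.30 after MCF-10A EVs and 0.23 after MDA-MB-231 EVs, where all genes had 0.21. Monocyte and macrophage markers had 11 of 16 above 0 and a median of 0.76, and 9 of 13 with a median of 0.29 without MCF-10A EV 1. Erythroid markers were high in the same library. Their list median was 2.50 in MCF-10A EV 1 and -0.43 to 0.51 in the other EV libraries, against -0.73 to 0.91 after PBS, and their summed level was 16443 TPM in MCF-10A EV 1 against 830.45 to 4353.8 TPM after PBS. Over all libraries 9 of 10 erythroid markers were above 0 with a median of 0.46, which was 0.11 without MCF-10A EV 1. The part of blood cells in the inflammatory values was not tested. S100a8, an alarmin of neutrophils, was at 3.29, 24.2 and 3.89 TPM after PBS, 1551, 10.3 and 83 TPM after MCF-10A EVs and 4.91, 8.36 and 76.6 TPM after MDA-MB-231 EVs.

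Kupffer cell markers had 20 of 22 above 0 and a median of 0.61, which was 0.26 without MCF-10A EV 1 and 0.33 without PBS 1. Their summed level was 549.76 to 1058.4 TPM after PBS, 571.94 to 3672.2 TPM after MCF-10A EVs and 972.74 to 1350.6 TPM after MDA-MB-231 EVs. Marco, a scavenger receptor of macrophages, was at 16.1, 47.6 and 25.8 TPM after PBS, 822, 36 and 62.3 TPM after MCF-10A EVs and 40.3, 81.8 and 129 TPM after MDA-MB-231 EVs (log2 change 1.79 ± 0.86). The groups overlapped at PBS 2. The chemokine Cxcl1, of the NF-kB list (21 of 23 above 0, median 0.46, and 13 of 19 with 0.16 without MCF-10A EV 1), was at 10.9, 8.65 and 11.8 TPM after PBS, 93.4, 16.4 and 36.3 TPM after MCF-10A EVs and 55.7, 7.41 and 24.2 TPM after MDA-MB-231 EVs (1.40 ± 0.63). For Cxcl1, 5 of 6 EV libraries lay above PBS and MDA-MB-231 EV 2 below it. Genes of vesicle uptake and endocytosis had 30 of 37 above 0 and a median of 0.28 (0.15 without MCF-10A EV 1), with Flot2 as the member apart in every library, and scavenger receptors 11 of 19 and 0.15. The summed level of the uptake list was 768.68 to 1041.2 TPM after PBS and 824.62 to 1670.8 TPM after EVs, with overlap. Interferon-response genes had a median of -0.06, with 13 of 32 above 0, and of 0.13 without PBS 1, where all genes had 0.21.

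Markers of the vessel wall and matrix had pooled medians under that of all genes, and the medians of the cell markers differed in sign between the vesicle kinds. Stellate cell markers had a median of -0.10, with 7 of 19 above 0, sinusoidal endothelial markers -0.09, with 7 of 24, and extracellular matrix genes -0.10, with 8 of 20. By vesicle kind the stellate median was 0.26 after MDA-MB-231 EVs and -0.39 after MCF-10A EVs, and the endothelial one 0.20 and -0.38, beside 0.21 and 0.09 over all genes. The matrix medians were -0.13 and -0.25. The direction of the endothelial median was 0.27 with libraries weighted by quality, that of the matrix list 0.14 at a mean of 5 or more, and that of the stellate list 0.01 without MDA-MB-231 EV 2. Rgs5, a pericyte and stellate gene, was at 28.8, 38 and 27.5 TPM after PBS and 6.74, 10.5 and 7.21 TPM after MCF-10A EVs, but at 29.5, 19.6 and 27 TPM after MDA-MB-231 EVs (pooled log2 change -1.07 ± 0.31; difference between kinds 1.53 ± 0.36, limma adjusted p = 0.552). Acta2, smooth muscle actin, was at 6.8, 13.2 and 3.79 TPM after PBS, 1.62, 8.38 and 1.9 TPM after MCF-10A EVs and 2.39, 1.04 and 5.13 TPM after MDA-MB-231 EVs (-1.09 ± 0.54). Col6a1, a collagen chain, was at 4.7 to 7.8 TPM after PBS and 1.31 to 8.62 TPM after EVs, with MDA-MB-231 EV 3 the highest of all. Fat, pancreas and mesothelium markers had 4 of 11 above 0. Cfd, an adipocyte protease, was at 296 TPM in PBS 2 and at most 5.52 TPM in any other library, so its log2 change of -2.99 ± 1.28 rests on PBS 2.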

How the data were processed

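RNA-seq libraries of 9 liver samples were made with a TruSeq kit, per the labels' protocols, with 1 µg of total RNA as input. The deposited table gives TPM, a length-corrected transcript abundance, as the authors made it. Per the submitters' processing notes, HISAT2, StringTie and RSEM were used with the mouse build GRCm39 (no versions given). TPM of the MCF-10A EV libraries sum to 979351, 946777 and 934986, so each library was rescaled to 1000000 over the 19252 Ensembl rows above 0 in at least 1 library of each group.

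Genes with a mean of 1 or more were tested as log2(rescaled TPM + 1), with a pseudocount of 1, in limma 3.58.1 (R 4.3.3): 3 group means, trended prior variance, two-sided. The contrast was the average of both EV means minus the PBS mean, and fold changes on this scale understate low genes. Alternatives changed the pseudocount, filter, scaling, weights, replicate block and libraries. Deviations of same-numbered libraries had r from 0.124 to 0.476 over genes between the 2 EV groups, and -0.468 to 0.57 between PBS and EV groups. Unlike numbers reached 0.126 for MCF-10A EV 1 with MDA-MB-231 EV 2, and 0.702, the highest r, for PBS 1 with MDA-MB-231 EV 3. These values therefore do not show that the number pairs libraries.

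The named genes are, per direction, up to 12 non-predicted genes with a higher-side mean of 5 or more and all EV libraries on 1 side of PBS, by smallest p, and up to 3 of each list. The members, lists and rules were chosen with earlier results of these data known. Genes outside this rule were added after their values were seen. Of 41 lists, those not described had medians between -0.15 and 0.43. Some genes are not reported here.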

Additional observations from a re-analysis of the deposited data

Results flagged for a closer look

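A difference between the vesicle kinds was called for 5 genes, so these are not shared by both. The log2 difference, MDA-MB-231 minus MCF-10A vesicles, was 5.68 for Tuba5-ps, 4.15 for Gm47076, 2.98 for Gm14026, -2.88 for Gm5827 and -3.93 for Gli1.

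The assembled loci, left out of the comparison, summed to 56965 deposited TPM in MDA-MB-231 EV 3, against 18218 to 30151 TPM in the PBS libraries and 0 in the MCF-10A EV libraries. Dixon's criterion was applied only to the 20 named genes whose EV libraries all lay on the same side of PBS. None of these had a library far from the other 5 EV libraries by it. Ppp3r1 was thus not flagged, though it was at 15.5 and 18.8 TPM in its highest EV libraries and at 3.32 to 4.8 TPM in the rest. The remaining named genes were not checked in this way.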

How the results depend on the processing

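The pooled comparison called 1 gene, Tuba5-ps, with a pseudocount of 0.1, a mean of 5 or more, TPM as deposited, or without mitochondrially encoded genes. It called 30 with libraries weighted by quality (10 higher, 20 lower, Apba2, Usp9y and Gucy2c among them). These 30 also held the 5 genes called between the vesicle kinds, and Tmem254a, Tm4sf5 and Chn1, so not all were shared by both kinds. When 1 library was left out the pooled comparison called 0 to 4. The 4 came without MDA-MB-231 EV 3, with Tuba5-ps, Chn1 and Nkain4 among them. The pooled comparison called 0 with a pseudocount of 5, no filter, median centring, quantile normalization, the 6 EV libraries as 1 group, or without PBS 1 and MDA-MB-231 EV 3. With the replicate block 0 genes were called, 198 at an unadjusted p under 0.05.

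The vesicle kinds compared with each other gave 3 genes with a pseudocount of 5, 2 with no filter, 1 at a mean of 5 or more, 19 with quality weights, 3 with the replicate block, 11 without PBS 1 and MDA-MB-231 EV 3, and 2 to 10 when 1 library was left out. Genes with EV and PBS apart numbered 121 with no filter, 39 at a mean of 5 or more, 91 after quantile normalization, 464 without PBS 1 and MDA-MB-231 EV 3, and 71 to 506 when 1 library was left out, since fewer libraries part more easily. Of the 60 genes, 49 stayed apart with TPM as deposited, 32 without mitochondrially encoded genes, 21 after quantile normalization and 16 after median centring.

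Of the 136 named genes, those with all EV libraries on 1 side of PBS were chosen for their direction, so their sign was nearly fixed. The remaining named genes had the smallest p of their list in these same libraries, which also favours a kept sign. Among all 136, 131 kept their direction in every alternative, a count that therefore tests little. The others were reversed: with quality weights Cidec was at 0.21, Hsph1 at 0.036, Cd24a at -0.055 and Anxa13 at 0.15. Ighm was at 0.017 without PBS 1 and 0.15 without PBS 1 and MDA-MB-231 EV 3. Over the leave-outs Cd24a ran from -0.15 to 0.81, Anxa13 from -0.49 to 0.18 and Ighm from -0.53 to 0.017; the cause was not tested. TPM keep no depth, so counting error cannot be given.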
